A study of Homo sapiens with 9 samples.

Results

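The 42 genes described here were listed by symbol as serine/arginine-rich (SR) proteins, heterogeneous nuclear ribonucleoproteins (hnRNPs), CLK kinases and other splicing factors. Of these, 41 had a row among the 24344 genes of the count table and SRSF8 was not analysed here. The 41 members comprised 12 SR proteins, 14 hnRNPs, 4 CLK kinases and 11 other splicing factors, and all of them passed the filter on low counts that left 14195 genes for testing. Their counts ran from 198 reads for CLK4 in its lowest library to 29386 reads for HNRNPA1 in its highest.

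RNA was sequenced from MDA-MB-231, an established human triple-negative breast adenocarcinoma line, after 48 h with 1 of 3 injections. CKI is Compound Kushen Injection, which contains the herbs Kushen and Baituling. The Kushen injection and the Baituling injection each contained a single herb at the ratio used in CKI. All 3 injections were used at 2.0 mg/mL. For CKI the study counts this as total alkaloids, and for the single injections as the equivalent concentration. Each injection had 3 libraries, 9 in all, with total counts between 20144628 and 23782071. No untreated library entered the comparisons, so higher and lower below set the injections against each other. A single line was used, no source says whether its libraries came from separate cultures, and p-values then measure the spread between these libraries, which may be technical.

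Pre-mRNA splicing is carried out by the spliceosome, and the choice of splice sites is tuned by proteins that bind the transcript. SR proteins carry RNA recognition motifs and arginine/serine-rich domains and mostly bind exonic enhancers, whereas hnRNPs coat nascent transcripts and often silence splice sites. CLK kinases phosphorylate the arginine/serine-rich domains of SR proteins and thereby release them from nuclear speckles, and many SR protein and hnRNP genes limit their own expression through poison exons that send their transcripts to nonsense-mediated decay.

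VIM, CD44, EGFR, AXL and CAV1 were at or above 162 CPM in every library (CPM, reads of a gene per library size after TMM scaling, the trimmed mean of M values), while ESR1 and PGR reached at most 0.177 CPM. The epithelial genes CDH1, from 0.443 to 2.82 CPM, and EPCAM, from 6.93 to 13.8 CPM, were low. The blood cell markers PTPRC, CD3E and HBB reached at most 0.386 CPM, CDH5 at most 0.166 CPM and VWF at most 1.03 CPM. Markers of the line moved with the injections too, with VIM at -2.56, CAV1 at -1.40 and EGFR at 0.79 on the log2 scale between CKI and Baituling. The nuclear long noncoding RNAs NEAT1 and MALAT1 also moved: NEAT1 lay between 682 and 1311 CPM in the CKI and Kushen libraries and between 56.5 and 74.7 CPM in the Baituling libraries, and MALAT1 between 333 and 705 CPM against 67.9 to 83.1 CPM. The part of these genes in the differences below was not tested.

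Most splicing regulators were lower in cells treated with CKI or Kushen than in cells treated with Baituling. In CKI against Baituling, 32 of 41 members were lower and 8 higher at an adjusted p under 0.05 (edgeR's quasi-likelihood test, Benjamini-Hochberg adjustment over all 14195 genes), where 37.0% of all genes were lower and 39.1% higher. The median log2 fold change of the members was -0.56, against 0.03 over all genes. In Kushen against Baituling, 29 members were lower and 5 higher, against 36.1% and 35.6% of all genes, with a median of -0.53 for the members and 0.02 for all genes. CKI and Kushen lay closer together: 17 members were lower in CKI and 3 higher, against 20.2% and 19.6% of all genes, with medians of -0.08 and 0.01. The comparisons share libraries, so their counts are not independent of each other.

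Past the threshold of the study, which also asks for a log2 fold change above 1 or below -1, 9 members were lower in CKI than in Baituling, against 7.91% of all genes. These were SRSF1, SRSF3, SRSF7, TRA2B, HNRNPA1, HNRNPA2B1, HNRNPD, HNRNPDL and HNRNPM. In Kushen against Baituling, 7 members were past it on the lower side, against 6.73% of all genes, namely SRSF1, SRSF3, SRSF7, TRA2A, HNRNPA1, HNRNPD and HNRNPM. No member was past it on the higher side, where 11.2% and 8.5% of all genes were, and none in either direction in CKI against Kushen, where 1.9% of all genes were past it. The 3 libraries of CKI lay wholly on 1 side of the 3 Baituling libraries for 40 of 41 members, against 78.3% of all genes, and those of Kushen for 33, against 73.1%. CKI and Kushen libraries were apart for 21 members, against 49.5% of all genes.

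**Figure D1:**
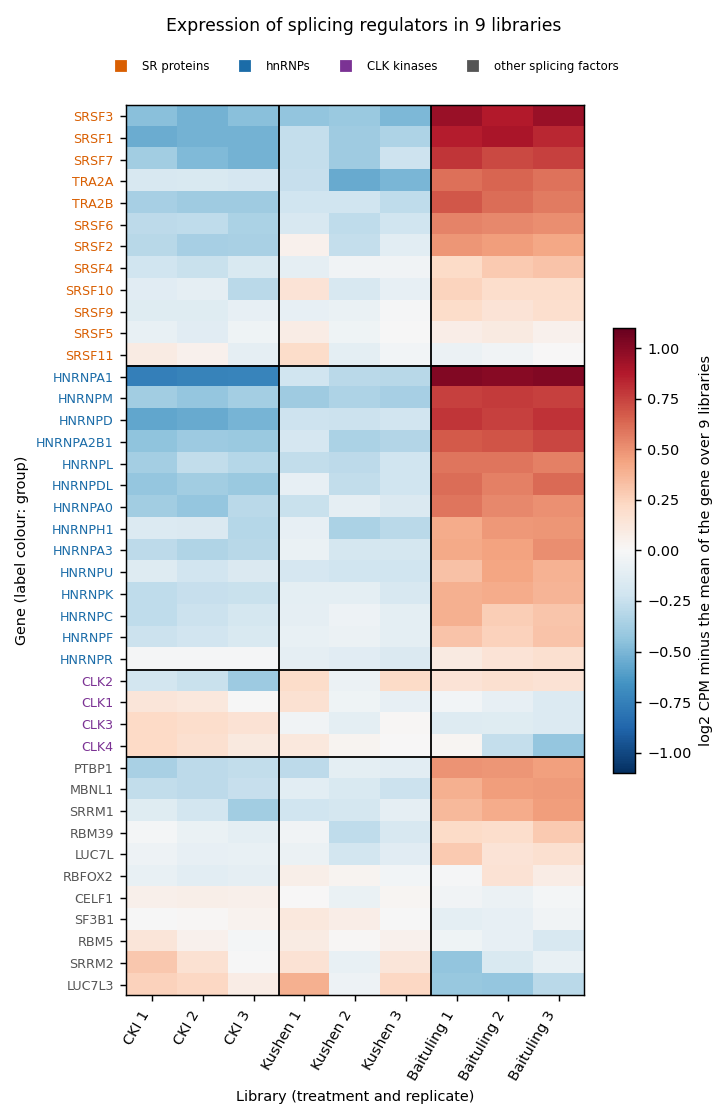
Expression of 41 splicing regulators (rows, grouped by kind) in the 9 libraries (columns), as log2 CPM minus the mean of that gene over the 9 libraries, red above and blue below the mean. The 3 Baituling columns are red for nearly all SR proteins and hnRNPs, whereas CLK1, CLK3, CLK4, SRRM2 and LUC7L3 run the other way.

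The kinds of regulator differed in their counts. Among hnRNPs, all 14 were lower in CKI than in Baituling and all 14 lower in Kushen than in Baituling, with median log2 fold changes of -0.83 and -0.70, although under library totals in place of TMM 13 stayed lower in each comparison and HNRNPR turned higher in CKI against Baituling. Among the 12 SR proteins, 11 were lower in CKI and 10 lower in Kushen than in Baituling, with medians of -0.80 and -0.66, and under library totals 8 were lower and 2 higher in each comparison. Of the 4 CLK kinases, 3 were higher and 1 lower in CKI than in Baituling, and 1 higher in Kushen than in Baituling, while under library totals 3 were higher and none lower in the former and 4 higher in the latter, where 57.0% and 50.6% of all genes were higher on that scale. The 11 other splicing factors were divided, with 5 higher and 6 lower in CKI and 4 higher and 5 lower in Kushen, and under library totals 6 higher and 3 lower in CKI and 6 higher and 5 lower in Kushen, a share on the higher side close to that of all genes. In CKI against Kushen, 9 hnRNPs and 5 SR proteins were lower in CKI and 1 of each higher. The CLK kinases had 1 each way, and 2 other factors were lower, where 20.2% of all genes were lower and 19.6% higher. Under library totals 4 hnRNPs and 2 SR proteins were lower, and 2 hnRNPs and 1 SR protein higher. The CLK kinases again had 1 each way, and 2 other factors were higher and none lower. On that scale 12.9% of all genes were lower and 29.7% higher.

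**Figure D2:**
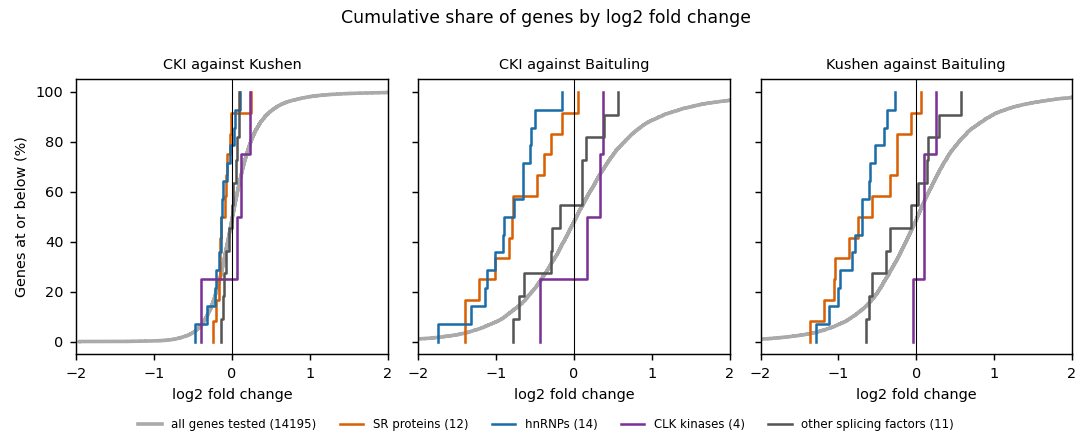
Cumulative share of genes (vertical axis, percent) at or below each log2 fold change (horizontal axis) for all 14195 genes tested and the 4 kinds of regulator, in 3 comparisons. The hnRNP and SR protein curves lie to the left of the curve of all genes in both comparisons with Baituling, with medians between -0.83 and -0.66, and close to it in CKI against Kushen.

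Summed over the genes of a kind, the 14 hnRNPs made up 4527 CPM ± 38.7 (SD, n = 3) under CKI, 5019 ± 106 under Kushen and 8616 ± 46.1 under Baituling. The 12 SR proteins summed to 1664 CPM ± 18.3 under CKI, 1776 ± 66.5 under Kushen and 2767 ± 25.5 under Baituling. For both kinds the highest CKI or Kushen library lay below the lowest Baituling library. The 4 CLK kinases summed to 165 CPM ± 7.21 under CKI, 164 ± 9.85 under Kushen and 157 ± 3.51 under Baituling, with libraries that overlapped. That overlap with Baituling depended on TMM. As a share of library totals they made up 0.0169% to 0.0187% under CKI and 0.0157% to 0.018% under Kushen. Under Baituling that share was 0.0138% to 0.0141%, below every other library. In bulk RNA, fewer cells that express a gene and less RNA of it per cell cannot be told apart.

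Per kilobase of the canonical transcript, the levels of the members spanned a wide range. In CKI, SRSF9 stood at 262 CPM per kilobase, HNRNPC at 192, HNRNPK at 189.6 and HNRNPA2B1 at 175, while CLK4 was the lowest member at 6.59. In Baituling, HNRNPA2B1 and HNRNPA1 stood at 381 CPM per kilobase each, above SRSF9 at 322, and CLK4 was again the lowest at 5.07. Across the 41 genes, the log2 fold change of CKI against Baituling ran against the mean log2 CPM (Pearson's r = -0.49, Spearman's rho = -0.43) and along with the genomic span of the gene on a log2 scale (r = 0.47, rho = 0.55), and showed little relation to the canonical transcript length (r = 0.07, rho = 0.05). These correlations are across genes measured in the same libraries and are given as a description.

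Promoters are shown for 5 members because their genes moved together or stood at the ends of the range: the 2 SR proteins and the 2 hnRNPs with the largest difference on the lower side in CKI against Baituling among members with a promoter entry, and LUC7L3, the member with the largest difference on the higher side. Each is the 250 bases before the transcription start, 5′ to 3′ on the strand of the gene, from RefSeq on GRCh38.p14, with matches to 5 motifs in capitals. The motifs were searched on both strands: the CCAAT box by those letters, the TATA box as TATAAA, the E box as CACGTG, the GC box as GGGCGG and an ETS motif as CCGGAAG. The windows are chr17:58007247-58007496 on the minus strand for SRSF1, chr6:36594112-36594361 on the plus strand for SRSF3, chr4:82373992-82374241 on the minus strand for HNRNPD, chr19:8444725-8444974 on the plus strand for HNRNPM and chr17:50719353-50719602 on the plus strand for LUC7L3.
SRSF1: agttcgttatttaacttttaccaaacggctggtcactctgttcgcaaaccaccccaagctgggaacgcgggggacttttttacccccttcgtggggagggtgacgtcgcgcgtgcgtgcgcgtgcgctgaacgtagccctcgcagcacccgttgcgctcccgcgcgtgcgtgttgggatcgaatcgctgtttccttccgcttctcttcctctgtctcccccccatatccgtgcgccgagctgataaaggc
SRSF3: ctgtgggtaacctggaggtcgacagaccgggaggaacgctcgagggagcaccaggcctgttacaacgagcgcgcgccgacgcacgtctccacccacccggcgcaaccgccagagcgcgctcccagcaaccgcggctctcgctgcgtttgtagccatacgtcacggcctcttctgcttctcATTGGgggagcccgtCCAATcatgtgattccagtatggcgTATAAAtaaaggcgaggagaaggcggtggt
HNRNPD: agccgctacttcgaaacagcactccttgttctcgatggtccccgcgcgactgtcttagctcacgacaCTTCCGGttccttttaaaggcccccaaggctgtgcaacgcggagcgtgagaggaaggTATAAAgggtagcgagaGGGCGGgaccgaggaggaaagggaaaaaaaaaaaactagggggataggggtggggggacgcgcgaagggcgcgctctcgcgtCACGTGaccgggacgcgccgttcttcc
HNRNPM: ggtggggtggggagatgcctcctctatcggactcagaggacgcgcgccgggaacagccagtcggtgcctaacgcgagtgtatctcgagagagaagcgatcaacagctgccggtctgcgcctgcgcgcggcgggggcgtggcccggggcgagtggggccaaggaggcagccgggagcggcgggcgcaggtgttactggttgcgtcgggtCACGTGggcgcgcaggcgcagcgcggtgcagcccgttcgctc
LUC7L3: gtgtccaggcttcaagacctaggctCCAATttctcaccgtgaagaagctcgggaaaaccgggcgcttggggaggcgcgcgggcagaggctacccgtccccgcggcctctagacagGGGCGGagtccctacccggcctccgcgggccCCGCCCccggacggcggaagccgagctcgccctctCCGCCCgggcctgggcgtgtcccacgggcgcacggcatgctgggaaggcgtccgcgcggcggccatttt

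SRSF1 held none of the 5 motifs, SRSF3 a CCAAT box on each strand and a TATA box, and HNRNPD a TATA box, a GC box, an E box and an ETS match. HNRNPM held an E box, and LUC7L3 a CCAAT box and GC boxes on both strands. Among the 36 of 41 members with an entry, 19.4% (7 promoters) held the E box, against 6.49% of 27305 promoters of the same length. The GC box was held by 58.3%, against 42.3%, and the CCAAT box by 38.9%, against 33.0%. The TATA box was found in 11.1% of both, and the ETS match in 11.1% of members and 8.82% of all. The median GC content was 65.4% in the members' promoters and 58.0% in all. All members passed the filter on low counts, but the 27305 promoters were not limited to genes that did. The part of this unlike choice in the gaps was not tested. A match is a run of letters in the window and not a measured binding site.

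The SR proteins with the largest differences were SRSF1 and SRSF3. SRSF1 (ENSG00000136450, GRCh37 chr17:56078280-56084707, minus strand), the founding member of the family, was measured at 100.3, 102 and 102 CPM in CKI, 122, 112 and 116 CPM in Kushen and 267, 273 and 259.9 CPM in Baituling. Its log2 fold change was -1.40 ± 0.04 (SE) in CKI against Baituling (edgeR adjusted p = 5.25e-16), -1.19 ± 0.04 in Kushen against Baituling (7.31e-15) and -0.20 ± 0.04 in CKI against Kushen (0.00111). The 3 groups did not overlap and CKI was the lowest, 62.0% below Baituling and 13.1% below Kushen. SRSF3 (ENSG00000112081, GRCh37 chr6:36562130-36573377, plus strand), a small SR protein that also acts in mRNA export and 3′ end processing, was measured at 214, 205 and 214 CPM in CKI, 218, 221 and 208 CPM in Kushen and 568, 539 and 566 CPM in Baituling. Its log2 fold change was -1.40 ± 0.04 in CKI against Baituling (edgeR adjusted p = 2.79e-16) and -1.37 ± 0.04 in Kushen against Baituling (7.3e-16). CKI and Kushen overlapped for SRSF3, with a difference of -0.03 and a 95% interval from -0.12 to 0.05 (normal approximation), and every one of these libraries lay below all Baituling libraries.

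SRSF7, an SR protein with a zinc knuckle, was measured at 96.6, 90.1 and 88.3 CPM in CKI, 105, 96.4 and 108 CPM in Kushen and 218, 209 and 213 CPM in Baituling. Its log2 fold change was -1.22 ± 0.05 in CKI and -1.05 ± 0.05 in Kushen against Baituling (edgeR adjusted p = 2.47e-14 and 3.36e-13). CKI against Kushen gave -0.17 ± 0.05 (edgeR adjusted p = 0.0101, and 0.0525 without CKI replicate 3), although the highest CKI library, at 96.6 CPM, stood just above the lowest Kushen library, at 96.4 CPM. Under library totals that difference was -0.10 (edgeR adjusted p = 0.14).

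The 2 Transformer-2 homologues, SR-like proteins that bind purine-rich enhancers, differed in how CKI stood against Kushen. TRA2A was measured at 38.9, 39.2 and 38.7 CPM in CKI, 37.0, 30.0 and 31.0 CPM in Kushen and 67.0, 68.7 and 66.6 CPM in Baituling. All CKI libraries lay above all Kushen libraries, a log2 fold change of 0.25 ± 0.07 (edgeR adjusted p = 0.00458), the largest on the higher side among the members in that comparison, and both groups lay below Baituling, by 42.3% and 51.6%. TRA2B was measured at 110.5, 108 and 108 CPM in CKI, 122, 122 and 117 CPM in Kushen and 228, 217 and 211 CPM in Baituling. For TRA2B all CKI libraries lay below all Kushen libraries, with a log2 fold change of -0.15 ± 0.04 (edgeR adjusted p = 0.0112), and against Baituling it was -1.01 ± 0.04 in CKI and -0.86 ± 0.04 in Kushen. Under library totals the difference of TRA2B between CKI and Kushen was -0.07 (edgeR adjusted p = 0.189). Whether CKI and Kushen differed by another amount for TRA2A than for TRA2B was not tested.

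The other 7 SR proteins showed smaller differences. SRSF6, which belongs with SRSF4 and SRSF5 to the members with a pair of RNA recognition motifs, stood at -0.83 in CKI and -0.75 in Kushen against Baituling on the log2 scale, and SRSF2, an SR protein that stays in the nucleus, at -0.80 and -0.57. SRSF4, which shares that build, stood at -0.48 and -0.33, SRSF10, which represses splicing when it is dephosphorylated, at -0.38 and -0.24, and SRSF9 at -0.30 and -0.24, all at an adjusted p under 0.05, but SRSF9 and SRSF10 passed in neither comparison under library totals. SRSF5 was lower in CKI than in Baituling by -0.16 ± 0.04 (edgeR adjusted p = 0.00257) and stood at -0.07 in Kushen against Baituling (0.166), but under library totals these were 0.13 and 0.14. SRSF11 was the SR protein that passed in no comparison, at 0.05 in CKI against Baituling with a 95% interval from -0.07 to 0.18 and at 0.06 in Kushen against Baituling with an interval from -0.06 to 0.19. Under library totals SRSF11 passed as higher, at 0.34 and 0.28. SRSF2 and SRSF9 overlap MFSD11 and GATC on the opposite strand, and since the libraries were unstranded these reads could not be told apart.

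**Figure D3:**
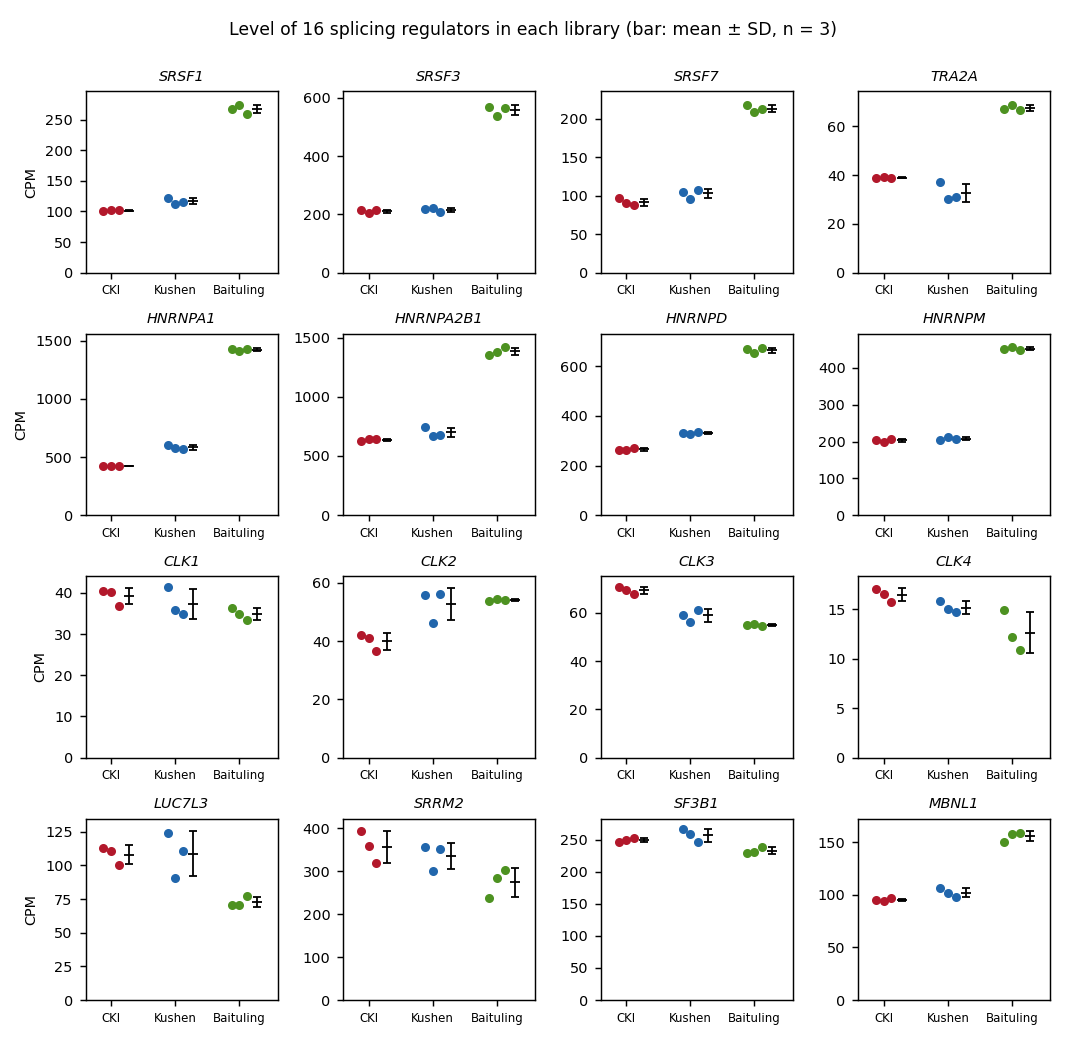
CPM of 16 splicing regulators in each library (points) with the mean ± SD of the 3 libraries of each injection (bars), each vertical axis from 0. The 8 SR proteins and hnRNPs in the upper rows stand highest in Baituling, with HNRNPA1 at a mean of 1425 CPM against 423 in CKI, while CLK2 is lowest in CKI and LUC7L3 is lowest in Baituling.

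HNRNPA1 showed the largest difference of the members when CKI was set against either single injection. HNRNPA1 (ENSG00000135486, GRCh37 chr12:54673977-54680872, plus strand), an abundant shuttling hnRNP and splicing silencer, was measured at 419.5, 424 and 426 CPM in CKI, 607, 574 and 572 CPM in Kushen and 1434, 1414 and 1427 CPM in Baituling. The log2 fold change was -1.75 ± 0.04 in CKI against Baituling (edgeR adjusted p = 6.11e-18), -1.29 ± 0.04 in Kushen against Baituling (5.43e-16) and -0.47 ± 0.04 in CKI against Kushen (2.59e-08). The groups were far apart in the order CKI, Kushen, Baituling, with CKI 70.3% below Baituling and 27.6% below Kushen. The annotation names 74 pseudogenes of HNRNPA1, and how reads that fit several copies were counted is not given in the sources used here, so its level is uncertain.

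HNRNPA2B1, the closest relative of HNRNPA1 and a reader of splicing and RNA transport motifs, was measured at 626, 644 and 640.3 CPM in CKI, 746, 669.9 and 681 CPM in Kushen and 1355, 1375 and 1419 CPM in Baituling. Its log2 fold change was -1.12 ± 0.04 in CKI and -0.98 ± 0.04 in Kushen against Baituling (edgeR adjusted p = 1.48e-14 and 1.58e-13), and -0.14 ± 0.04 in CKI against Kushen (0.0179). The 3 groups did not overlap, but the call between CKI and Kushen was lost without CKI replicate 1 or Kushen replicate 1 (adjusted p = 0.0642 and 0.0877). Under library totals that difference was -0.06 (edgeR adjusted p = 0.278). HNRNPA3 and HNRNPA0, of the same subfamily, stood at -0.77 and -0.91 in CKI against Baituling, at -0.61 and -0.70 in Kushen against Baituling, and at -0.16 and -0.20 in CKI against Kushen, all at an adjusted p under 0.05. Under library totals HNRNPA3 did not pass in CKI against Kushen (-0.09, edgeR adjusted p = 0.143). HNRNPA2B1 overlaps NFE2L3 and CBX3, and HNRNPA3 overlaps NFE2L2, on the opposite strand. The annotation also names 16 pseudogenes of HNRNPA3.

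HNRNPD, also called AUF1, which binds AU-rich elements and promotes mRNA decay, was measured at 261, 264 and 272 CPM in CKI, 331, 329 and 335 CPM in Kushen and 668, 654 and 673 CPM in Baituling. Its log2 fold change was -1.32 ± 0.04 in CKI against Baituling (edgeR adjusted p = 1.95e-16), -1.0 ± 0.04 in Kushen against Baituling (1.59e-14) and -0.32 ± 0.04 in CKI against Kushen (2.72e-06). HNRNPDL, its paralogue, whose gene lies near that of HNRNPD on chromosome 4, was measured at 180.4, 186 and 183 CPM in CKI, 228, 201 and 209 CPM in Kushen and 370.3, 357 and 374 CPM in Baituling. Both genes showed the same order of the injections with no overlap between groups. The log2 fold change of HNRNPDL was -1.01 ± 0.05 in CKI and -0.79 ± 0.05 in Kushen against Baituling, and -0.22 ± 0.05 in CKI against Kushen (edgeR adjusted p = 0.000998).

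HNRNPM, which controls exons in epithelial and mesenchymal splicing programmes, did not separate CKI from Kushen. It was measured at 205, 199 and 206 CPM in CKI, 204, 211 and 208 CPM in Kushen and 451, 456 and 449 CPM in Baituling. Against Baituling the log2 fold change was -1.15 ± 0.04 in CKI and -1.12 ± 0.04 in Kushen (edgeR adjusted p = 1.55e-15 and 3.56e-15), and CKI against Kushen gave -0.03 with a 95% interval from -0.11 to 0.04.

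The remaining hnRNPs were all lower in CKI and in Kushen than in Baituling. HNRNPL, which binds CA repeats, stood at -0.90 in CKI and -0.83 in Kushen, and HNRNPH1, which binds G runs, at -0.66 and -0.70. HNRNPK, which binds C-rich RNA, stood at -0.65 and -0.53, HNRNPC, which binds U tracts and keeps Alu sequences out of mRNA, at -0.56 and -0.41, and HNRNPU, the nuclear scaffold protein SAF-A, at -0.55 and -0.59. HNRNPF stood at -0.50 and -0.38. HNRNPU overlaps COX20 on the opposite strand, and HNRNPL, like SRSF1, overlaps a protein-coding gene on its own strand. Such overlaps are not named here for every member. HNRNPR showed the smallest differences, at 219, 218 and 218 CPM in CKI, 206, 202 and 197 CPM in Kushen and 236, 245 and 249.6 CPM in Baituling. Under library totals its difference from Baituling was 0.13 for CKI and -0.06 for Kushen. It was the only hnRNP that passed as higher in CKI than in Kushen, by 0.11 ± 0.04 (edgeR adjusted p = 0.027), and it lost that call with the DESeq2 Wald test (adjusted p = 0.0524) and without either CKI replicate 1, CKI replicate 2, CKI replicate 3, Kushen replicate 2 or Kushen replicate 3.

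**Figure D4:**
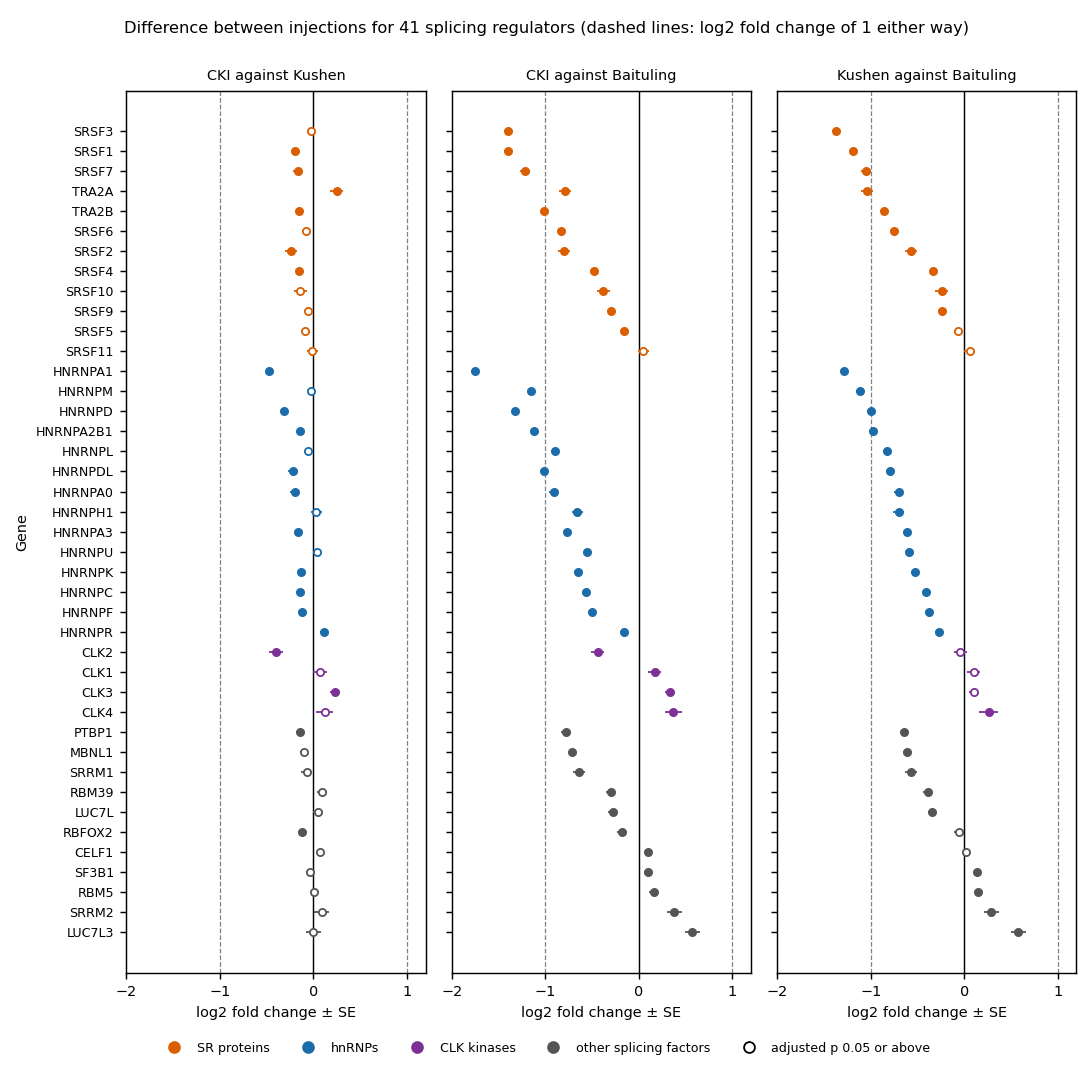
Log2 fold change ± SE (horizontal axes) of 41 splicing regulators in 3 comparisons, coloured by kind, with open circles for an adjusted p of 0.05 or above and dashed lines at a change of 1 either way. HNRNPA1 lies furthest to the left in CKI against Baituling at -1.75, and all points of CKI against Kushen lie between -0.47 and 0.25.

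The 4 CLK kinases did not share a direction. CLK1 (ENSG00000013441, GRCh37 chr2:201717732-201729414, minus strand), whose own transcript is regulated by intron retention, was measured at 40.5, 40.1 and 36.9 CPM in CKI, 41.5, 35.8 and 34.8 CPM in Kushen and 36.3, 34.8 and 33.3 CPM in Baituling. CKI was higher than Baituling by 0.17 ± 0.07 (edgeR adjusted p = 0.0309), a call lost with the DESeq2 Wald test (adjusted p = 0.0716) and without CKI replicate 1, CKI replicate 2, Baituling replicate 2 or Baituling replicate 3 (adjusted p from 0.0738 to 0.13). Kushen overlapped both other groups.

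CLK2 (ENSG00000176444, GRCh37 chr1:155232659-155248282, minus strand) was measured at 42.1, 40.9 and 36.7 CPM in CKI, 55.7, 46.3 and 56.0 CPM in Kushen and 53.8, 54.6 and 54.0 CPM in Baituling. It was the only kinase lower in CKI, by -0.40 ± 0.07 against Kushen (edgeR adjusted p = 0.000125) and by -0.44 ± 0.07 against Baituling (1.05e-05), although under library totals the latter was -0.15 (0.0621). All CKI libraries lay below all others, while Kushen against Baituling gave -0.04 with a 95% interval from -0.17 to 0.09 and turned to 0.17 under library totals.

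CLK3 (ENSG00000179335, GRCh37 chr15:74890841-74937755, plus strand) was measured at 70.8, 69.4 and 67.9 CPM in CKI, 59.3, 56.3 and 61.3 CPM in Kushen and 55.2, 55.3 and 54.7 CPM in Baituling. The log2 fold change of CKI was 0.23 ± 0.05 against Kushen (edgeR adjusted p = 0.000604) and 0.33 ± 0.05 against Baituling (3.55e-06). No groups overlapped, although Kushen against Baituling, at 0.10 ± 0.05, did not pass (edgeR adjusted p = 0.0734). That difference passed in edgeR under library totals (0.31, adjusted p = 1.56e-05) and upper quartile scaling (0.17, 0.00463). It also passed without Kushen replicate 2 (0.0352), with at least 10 counts in every library (0.0189) and with repeated rows left in (0.0482). CLK3 was the only member higher in CKI than in both single injections. CLK3 overlaps EDC3 on the opposite strand. CLK4 (ENSG00000113240, GRCh37 chr5:178029665-178057616, minus strand) was measured at 17.1, 16.6 and 15.8 CPM in CKI, 15.9, 15 and 14.7 CPM in Kushen and 14.9, 12.2 and 10.9 CPM in Baituling. CKI was higher than Baituling by 0.37 ± 0.09 (edgeR adjusted p = 0.00148), and Kushen higher than Baituling by 0.26 ± 0.10 (0.0227), the latter with overlapping libraries and lost without Kushen replicate 1, Baituling replicate 2 or Baituling replicate 3 (adjusted p from 0.0641 to 0.162).

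Among the other splicing factors, LUC7L3 and SRRM2 were the members with the largest differences on the higher side against Baituling. LUC7L3 (ENSG00000108848, GRCh37 chr17:48796926-48833580, plus strand), a relative of a U1 small nuclear ribonucleoprotein component of yeast, was measured at 113, 111 and 100 CPM in CKI, 124, 90.8 and 111 CPM in Kushen and 70.6, 70.5 and 77.1 CPM in Baituling. It was higher by 0.57 ± 0.08 in CKI and by 0.58 ± 0.08 in Kushen than in Baituling (edgeR adjusted p = 2.85e-06 and 3.11e-06), with no overlap with Baituling and a wide spread within Kushen. SRRM2 (ENSG00000167978, GRCh37 chr16:2802627-2822539, plus strand), a scaffold of nuclear speckles, was measured at 393, 359 and 319 CPM in CKI, 356, 301 and 351 CPM in Kushen and 237, 285 and 302 CPM in Baituling. It was higher by 0.38 ± 0.08 in CKI (edgeR adjusted p = 0.000305) and by 0.29 ± 0.08 in Kushen (0.00338) than in Baituling, where the lowest Kushen library, at 301 CPM, lay just below the highest Baituling library, at 302 CPM. Within CKI and within Kushen, LUC7L3 and SRRM2 were highest and lowest in the same libraries as NEAT1 and MALAT1. This match was noticed after the values were seen. It was not particular to members higher than in Baituling, since HNRNPH1 and RBM39, which were lower than in Baituling, and SRSF11 showed it too. Its part in the differences was not tested. SRRM2 overlaps ELOB on the opposite strand.

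PTBP1, which binds pyrimidine tracts and represses neuronal exons, was the factor of this kind with the largest difference on the lower side, at -0.78 in CKI and -0.64 in Kushen against Baituling. CKI against Kushen gave -0.14 ± 0.05 (edgeR adjusted p = 0.026) for PTBP1, and under library totals -0.06 (0.247). That call was also lost without CKI replicate 1, CKI replicate 2, Kushen replicate 2 or Kushen replicate 3 (adjusted p from 0.0599 to 0.119). MBNL1, known from myotonic dystrophy, stood at -0.71 and -0.61, SRRM1 at -0.64 and -0.57, RBM39, the target of aryl sulfonamide degraders, at -0.30 and -0.39, and LUC7L at -0.28 and -0.34, but RBM39 and LUC7L did not pass in CKI against Baituling under library totals. RBFOX2 was lower in CKI than in Kushen, at -0.12, and than in Baituling, at -0.18. The first call was lost without CKI replicate 1, 2 or 3 or Kushen replicate 1 or 2 (adjusted p from 0.0662 to 0.114). Under library totals the first difference was -0.05 (edgeR adjusted p = 0.45) and the latter turned to 0.11. SF3B1, the U2 component that holds the branch site, was higher by 0.10 ± 0.04 in CKI (edgeR adjusted p = 0.0376) and by 0.14 ± 0.04 in Kushen (0.00495) than in Baituling. CELF1, an antagonist of MBNL1 on shared exons, was higher by 0.10 ± 0.04 in CKI (edgeR adjusted p = 0.0444), and RBM5, a tumour suppressor candidate that regulates apoptotic exons, by 0.16 ± 0.05 in CKI and 0.15 ± 0.05 in Kushen (0.0127 and 0.0172). The calls of SF3B1 and CELF1 in CKI against Baituling were lost with the DESeq2 Wald test (adjusted p = 0.0926 and 0.126), without CKI replicate 1, 2 or 3 or Baituling replicate 1 or 2 (from 0.0542 to 0.152), without Kushen replicate 2 for SF3B1 (0.052) and without Baituling replicate 3 for CELF1 (0.0706). The calls of RBM5 were lost without Baituling replicate 3 (adjusted p = 0.0844 and 0.101), without CKI replicate 1 in CKI (0.083) or without Kushen replicate 1 in Kushen (0.0575).

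The position of CKI against both single injections was examined because CKI contains both herbs. CKI was below both for 17 members, against 13.7% of all genes, and above both for 1, CLK3, against 13.0%. Of the 17, 15 followed the order CKI below Kushen below Baituling at an adjusted p under 0.05 in all 3 comparisons, against 9.86% of all genes, and these comprised 9 hnRNPs, 5 SR proteins and PTBP1. The hnRNPs were HNRNPA0, HNRNPA1, HNRNPA2B1, HNRNPA3, HNRNPC, HNRNPD, HNRNPDL, HNRNPF and HNRNPK, and the SR proteins SRSF1, SRSF2, SRSF4, SRSF7 and TRA2B. CLK2 and RBFOX2 were below both single injections without a difference between Kushen and Baituling that passed. Under library totals 6 members were below both and 3 above both, and the share of all genes in these positions was not computed on that scale. Of all genes, 29.7% were then higher in CKI than in Kushen and 57.0% higher in CKI than in Baituling.

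**Figure D5:**
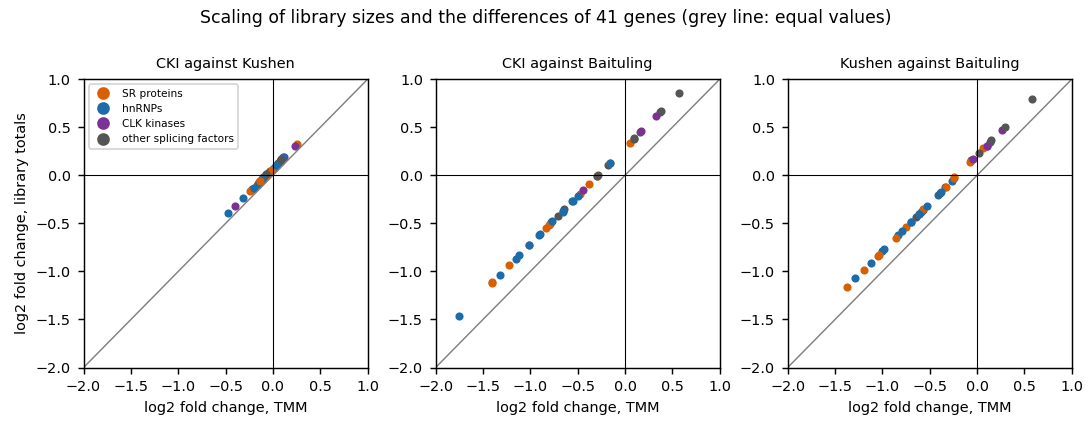
Log2 fold change of the 41 splicing regulators with library totals (vertical axes) against TMM scaling (horizontal axes) in 3 comparisons, coloured by kind, with a grey line of equal values. All points sit above the line by a near constant amount, about the shift of the median of all genes, which was 0.08 between CKI and Kushen, 0.29 between CKI and Baituling and 0.21 between Kushen and Baituling, so that members near 0, such as SRSF5 and RBFOX2, change sign.

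The scaling of library sizes set how many members counted as lower. TMM factors ran from 1.075 to 1.099 for CKI, from 1.024 to 1.047 for Kushen and from 0.8774 to 0.8995 for Baituling, and library totals in place of TMM moved the median of all genes up by 0.29 in CKI against Baituling. On that scale 24 members were lower and 12 higher in CKI than in Baituling, against 22.6% and 57.0% of all genes. The threshold of the study was passed by 4 members, all on the lower side, where 630 of 14195 genes passed it. In Kushen against Baituling, 26 members were lower and 12 higher, against 24.6% and 50.6% of all genes. In CKI against Kushen, 7 were lower and 6 higher, against 12.9% and 29.7%, and the 7 were SRSF1, SRSF2, HNRNPA0, HNRNPA1, HNRNPD, HNRNPDL and CLK2. HNRNPA1 stayed at -1.46, SRSF3 at -1.12 and SRSF1 at -1.11 in CKI against Baituling. The median of the members was then -0.27, against 0.32 over all genes, in CKI against Baituling.

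The wider splicing machinery was read from 3 lists. Of all genes, 37.0% were lower and 39.1% higher in CKI than in Baituling, and 36.1% and 35.6% in Kushen than in Baituling. Between CKI and Kushen 20.2% were lower in CKI and 19.6% higher. Under library totals these shares were 22.6% and 57.0%, 24.6% and 50.6%, and 12.9% and 29.7% in that order. Of 49 core spliceosome genes, 34 were lower and 8 higher in CKI than in Baituling, 32 lower and 3 higher in Kushen than in Baituling, and 13 higher and 10 lower in CKI than in Kushen, with medians of -0.34, -0.37 and 0.00, although under library totals 22 were lower and 18 higher in the first comparison, 26 lower and 17 higher in the next, and 18 higher and 3 lower between CKI and Kushen. In each comparison with Baituling 5 of the 49 were past the threshold of the study on the lower side. Of all genes, 7.91% were past it on that side in CKI and 6.73% in Kushen. Among the 5, SNRPA, the A protein of the U1 particle, stood at -1.80 in CKI and -1.67 in Kushen. The SF3A subunit SF3A2 stood at -1.15 and -1.20. The others were the Sm ring proteins SNRPD1 at -1.46 and -1.23, SNRPB at -1.21 and -1.20 and SNRPF at -1.21 and -1.03. The largest difference on the higher side was that of SLU7, a second-step factor, at 0.49 in CKI and 0.24 in Kushen. Of 45 other splicing regulators tested, 30 were lower and 6 higher in CKI than in Baituling, 33 lower and 5 higher in Kushen than in Baituling, and 10 lower and 5 higher in CKI than in Kushen, with medians of -0.41, -0.38 and -0.01, although under library totals 24 were lower and 15 higher, 25 lower and 10 higher, and 6 lower and 15 higher in that order. In both lists the count lower in CKI than in Kushen lay near the 20.2% of all genes. Of these 45 regulators, 4 were past the threshold of the study in CKI against Baituling, all lower, near the 7.91% of all genes. MBNL3 stood at -1.94 in CKI against Baituling, RBMX, the X-linked hnRNP G, at -1.69, CELF2 at -1.31 and SFPQ, a paraspeckle protein, at -1.30. MBNL2 went the other way, at 0.74 in CKI against Baituling, 0.42 in Kushen against Baituling and 0.32 in CKI against Kushen. SRPK1, the cytoplasmic SR protein kinase, passed in no comparison, at 0.01, 0.03 and -0.03, and SRPK2 was higher in CKI than in Baituling by 0.32.

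The 10 nonsense-mediated decay factors, which remove the poison exon transcripts of SR protein and hnRNP genes, went both ways against Baituling. In CKI 6 were higher and 3 lower than in Baituling, where 39.1% and 37.0% of all genes were. In Kushen 5 were higher and 4 lower, where 35.6% and 36.1% of all genes were. Whether counts from a list of 10 differ from those shares was not tested. Under library totals the list had 7 higher and 1 lower in CKI, where 57.0% and 22.6% of all genes were. In Kushen it then had 6 higher and 3 lower, where 50.6% and 24.6% of all genes were. In CKI against Kushen 6 were higher and none lower, where 19.6% and 20.2% of all genes were. The medians were 0.36, 0.10 and 0.17. SMG5 was higher by 0.77 in CKI and 0.61 in Kushen than in Baituling, and SMG9 stood at -0.53 and -0.71. Counts per gene do not separate productive from poison exon transcripts, so splicing itself was not measured here.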

How the data were processed

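Total RNA of 9 MDA-MB-231 libraries in 3 groups was sequenced unstranded and paired-end. The authors trimmed the reads with Trim Galore 0.3.7, aligned them with STAR 2.5.3a to hg19 (GRCh37) and deposited raw whole-number counts per Ensembl gene, without normalization. The counter and annotation are not given in the sources used here. Of 24566 rows, 222 repeated an earlier identifier and were dropped, so that the first row of each was kept, which left 24344 genes. Identical counts in all their rows were found for 194 of the repeated identifiers. Gene names and positions came from GENCODE release 44 mapped to GRCh37.

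Counts were tested with edgeR 4.0.16 (R 4.3.3) by its quasi-likelihood test, with TMM scaling and the 3 groups in 1 fit, on 14195 genes kept by its filter (minimum count 10, minimum total 15), with Benjamini-Hochberg adjustment and a threshold of 0.05. The common biological coefficient of variation was 4.53%. The fit was checked on simulated data. DESeq2 1.42.0, other scalings and filters, the 2 groups alone, rows as deposited, a replicate block and leaving out each library were alternatives. Same-numbered libraries did not deviate together (correlations from -0.278 to 0.253), and replicates of a group differed by more than sampling noise (chi-square per gene from 1.7 to 6.85). No mitochondrial gene was in the table. Members and lists were chosen with earlier results of these data known. Values in every library are given for the CLK kinases, the members past the threshold of the study and the 3 largest differences in each direction and comparison.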

Additional observations from a re-analysis of the deposited data

How the results depend on the processing

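Of 2214 recomputed differences of the 41 members in 3 comparisons, 2079 kept their direction and side of the threshold, 77 lost and 20 gained significance, and 31 changed sign near 0 without passing either way, under several settings. A further 7 turned direction and passed on at least 1 scale, all under library totals. The latter were, in CKI against Baituling, LUC7L (0.00), RBFOX2 (0.11), SRSF5 (0.13) and HNRNPR (0.13), and, in Kushen against Baituling, RBFOX2 (0.16), SRSF5 (0.14) and CLK2 (0.17). Library totals move the difference of every gene by the ratio of the TMM factors, by construction.

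Under library totals, CKI against Kushen had 6 members higher and 7 lower, 3 core spliceosome genes lower, and 15 other regulators higher and 6 lower. CKI against Baituling had 4 members past the threshold of the study, 18 core spliceosome genes higher and 22 lower, 15 other regulators higher and 1 nonsense-mediated decay factor lower. Kushen against Baituling had 12 members higher and 2 past the threshold of the study, 17 core spliceosome genes higher and 10 other regulators higher. CKI was above both single injections for 3 members and below both for 6, and the share of all genes in these positions was not computed on that scale. Under upper quartile scaling, Kushen against Baituling had 4 members past the threshold of the study, 5 core spliceosome genes higher and 8 other regulators higher. On the lower side, where these 4 members lay, 819 of 14195 genes were past it. With that scaling 40.2% of all genes were higher. The DESeq2 Wald test gave 5 members higher in CKI against Baituling, and the cause was not tested.

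Leaving out 1 library at a time gave 32 members lower in CKI against Baituling throughout, 29 to 30 lower in Kushen against Baituling and 13 to 18 lower in CKI against Kushen, 4 to 8, 3 to 6 and 2 to 4 higher, and 7 to 9, 5 to 8 and 0 past the threshold of the study. CKI stayed above both for 1 member and below both for 13 to 18. Members higher in CKI against Baituling went from 8 to 4 without CKI replicate 1 and to 5 without CKI replicate 2, Baituling replicate 2 or Baituling replicate 3, and those in Kushen against Baituling from 5 to 3 without Kushen replicate 1 or Baituling replicate 3.

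With a replicate block, CKI against Baituling had 32 members lower and 6 higher, Kushen against Baituling 29 and 5, and CKI against Kushen 16 and 3, and 3 differences lost significance. The libraries share only a number, so the block is no pairing by design.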
